A study of Glycine max with 18 samples.

Results

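The embryo proper is the part of the soybean embryo that becomes the seedling, with the shoot and root meristems and the cotyledons. It was represented by 2 of 18 arrays, chosen because their labels name this compartment and not by any measured value. They were set against the 14 arrays of the 7 other compartments captured from the same stage of seed, and 2 whole seed arrays were left out. With 2 arrays each, the 7 were 2 filial tissues and 5 parts of the maternal seed coat. The filial tissues were the endosperm, which nourishes the embryo, and the suspensor, the short-lived stalk below the embryo. The seed coat parts were the epidermis, the hilum (the scar of attachment), the outer and the inner integument, and the endothelium. All groups came from untreated seeds of the cultivar Asgrow A3237 that were 2.5 to 3 mm long and held embryos at the cotyledon stage, from plants kept at 22 °C in a cycle of 16 h light and 8 h darkness. The seeds were fixed with a mixture of ethanol and acetic acid, and 8 µm paraffin sections were captured with a laser. An Affymetrix soybean array received RNA amplified from 2 ng for each sample. The number of plants or seeds behind an array is not given, so p-values measure only the spread between these samples, which may be technical. In captured tissue, fewer cells that express a gene and less RNA per cell cannot be told apart.

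By the cotyledon stage the embryo proper has formed its cotyledons and its axis, which go on to grow as the seed fills. KNOX homeobox factors are known to keep shoot meristem cells undetermined, while PHANTASTICA-type MYB factors and YABBY factors act in the young lateral organs such as cotyledons and leaves. The LEC1 and WRINKLED1 factors are known, from Arabidopsis, to promote embryo identity and the making of fatty acids, and soybean embryos later fill with oil and storage protein. Soybean embryos are green, so chloroplast genes act in them well before the seed matures.

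The label of the embryo proper was checked against marker genes, which were chosen with earlier results of these data known and so describe the captures only. The summed signal of 5 embryo proper markers (GmYABBY11, PHANa, KTI3, LEC1-A and CAB3) was 60378 and 64643 on the 2 embryo proper arrays and 2671 to 21485 on the other 14. Much of these sums was CAB3, which read 35786 and 38522 in the embryo proper and up to 20247 in the outer integument. LEC1-A read up to 7176 in the suspensor, above its 5038 and 4675 in the embryo proper. The 11 seed coat markers summed to 3821 and 4237 in the embryo proper, to 6244 and 6849 in the endosperm, and to between 34574 and 262401 on the 12 arrays of the suspensor and seed coat. In the embryo proper the seed coat markers AGL1L, MADS28 and PRP2 lay under the floor of 50 on both arrays. The 4 suspensor markers summed to 737.8 and 1563 in the embryo proper and to 188728 and 158115 in the suspensor. The 2 endosperm markers summed to 759 and 633.5 in the embryo proper and to 14626 and 16414 in the endosperm, and one of them, CYSP2, lay under the floor on both embryo proper arrays. The embryo proper arrays had 60.1% and 60.7% of the 37593 soybean probe sets at a signal of at least 100, within the 56.7% to 67.5% of the other captures. Their log2 signals correlated with each other at 0.975 across probe sets, the closest of the 8 pairs. The ratio of the 3′ to the 5′ actin control was 5.33 and 9.01 in the embryo proper and 2.17 to 5.77 elsewhere, and the part of RNA quality in the results was not tested.

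Of 31760 soybean probe sets tested, 3761 (11.8%) were higher and 3409 (10.7%) were lower in the embryo proper than the average of the 7 other compartments, at an adjusted p under 0.05 in limma. That is 22.6% in either direction, and each compartment counted equally in the average. The median log2 fold of all tested probe sets was -0.10, a value that the equal scaling of the arrays keeps near 0. Of the 3761 that were higher, 1097 exceeded 4-fold and 190 exceeded 16-fold, and of the 3409 that were lower, 870 and 98 did. Both embryo proper arrays lay above all 14 others for 1654 probe sets (5.21%) and below all 14 for 867 (2.73%). With 1 array of the embryo proper, the test called far fewer: 1969 higher and 1763 lower without array 1, and 1901 higher and 1715 lower without array 2.

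A stricter group differed from each of the 7 compartments in its own test: 472 probe sets (1.49%) were higher in the embryo proper than in every one, and 218 (0.686%) were lower than in every one. The next-highest compartment of the 472 was most often the suspensor (101 probe sets), the outer integument (98) or the hilum (81), and least often the endothelium (33) or the inner integument (32). For the 218 it was the endosperm that came next-lowest most often (51 probe sets), with the hilum at 46 and the suspensor at 43. The 472 fell to 273 and 274 without embryo proper array 1 or 2, and the 218 fell to 125 and 114. Without the floor under low signals 282 were higher than in every compartment.

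In the tests against single compartments, which share the 2 embryo proper arrays, the inner integument differed at the most probe sets: 4894 (15.4%) were higher in the embryo proper and 4627 (14.6%) lower, 30.0% in all. The suspensor came next, with 3908 (12.3%) higher and 3542 (11.2%) lower, 23.5% in all. The outer integument gave 3656 (11.5%) and 3631 (11.4%), together 22.9%, and the endosperm 3716 (11.7%) and 3172 (9.99%), together 21.7%. Endothelium and hilum were close behind these. The endothelium gave 3460 (10.9%) higher and 3258 (10.3%) lower, together 21.2%, and the hilum 2951 (9.29%) and 3194 (10.1%), together 19.3%. The epidermis differed at the fewest, 2324 (7.32%) higher and 2412 (7.59%) lower, 14.9% in all. Across probe sets the mean log2 signals of the embryo proper correlated at 0.779 with those of the inner integument and at 0.867 with those of the epidermis, as a description of the arrays. Counts against the epidermis rested in part on its array 2, without which 1543 were higher and 1585 lower, and those against the hilum on its array 2 (1944 higher and 1931 lower without it).

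**Figure D1:**
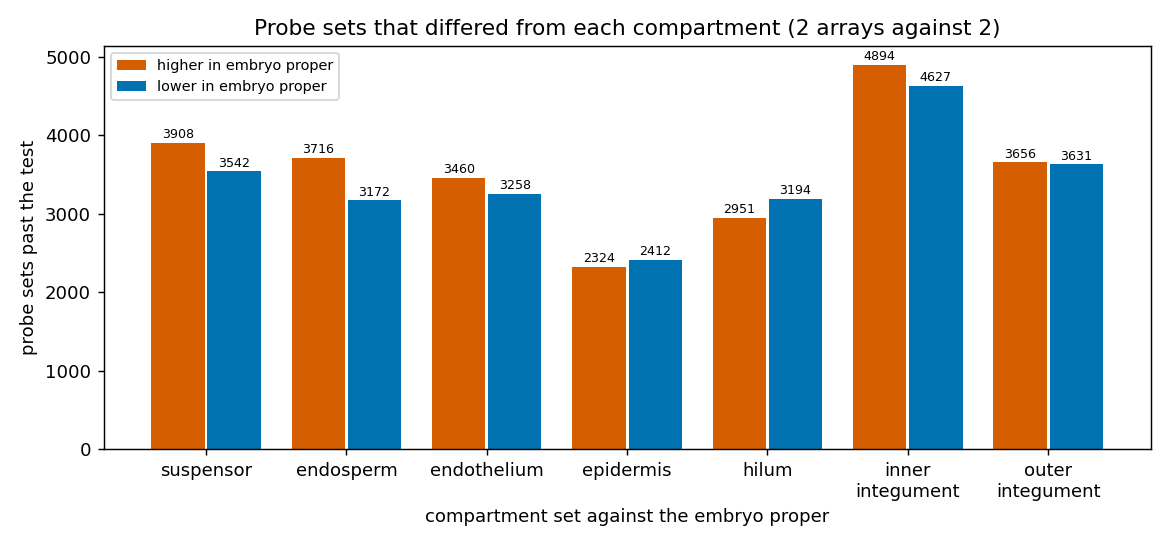
Number of probe sets (y axis) that passed the limma test as higher or lower in the embryo proper against each single compartment (x axis), 2 arrays against 2. The inner integument has the tallest bars, 4894 and 4627, and the epidermis the shortest, 2324 and 2412.

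The largest rises belonged to probe sets that carry no gene name in the probe table. The probe set GmaAffx.66676.1.S1_at read 17088 and 13863 on the embryo proper arrays and 6.9 to 104, with a median of 20.1, on the other 14. No array of another compartment came near the embryo proper, and its fold was 279 (log2 fold 8.12 ± 0.36 SE, limma adjusted p = 8.63e-11). The next were GmaAffx.86095.1.S1_at (244-fold), GmaAffx.25768.1.S1_at (233-fold), GmaAffx.5167.1.S1_at (179-fold) and Gma.12239.1.A1_at (174-fold), all with both embryo proper arrays above every other array. The 3 largest falls without a name were Gma.17031.1.A1_at (235-fold lower), GmaAffx.66317.1.S1_at (203-fold) and Gma.6760.1.S1_at (157-fold). Of the 3761 probe sets that rose, 3465 (92.1%) had no gene name here. Most soybean probe sets lack one, since 28546 of 37593 had no symbol or were not listed and others had only a locus number. The share over all tested probe sets was not counted, so the 92.1% is not read as a trait of the rises.

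Named genes give the account that follows, each read from its probe set of highest mean log2 signal. Of 1041 such genes 226 (21.7%) rose and 231 (22.2%) fell, which here and below means that they passed against the average of 7 as higher or lower. With or without passing, both embryo proper arrays lay above all 14 others for 91 (8.74%) and below them for 50 (4.8%). These percentages are the background for every count of list members below. The median log2 fold of the named genes was -0.16. Of the 24 largest rises without overlap, 15 were higher than each single compartment, and the suspensor was the nearest compartment for 9, the outer integument for 5 and the hilum for 4. Of the 14 largest falls, 10 were lower than each single compartment, and the endosperm was the nearest for 8.

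**Figure D2:**
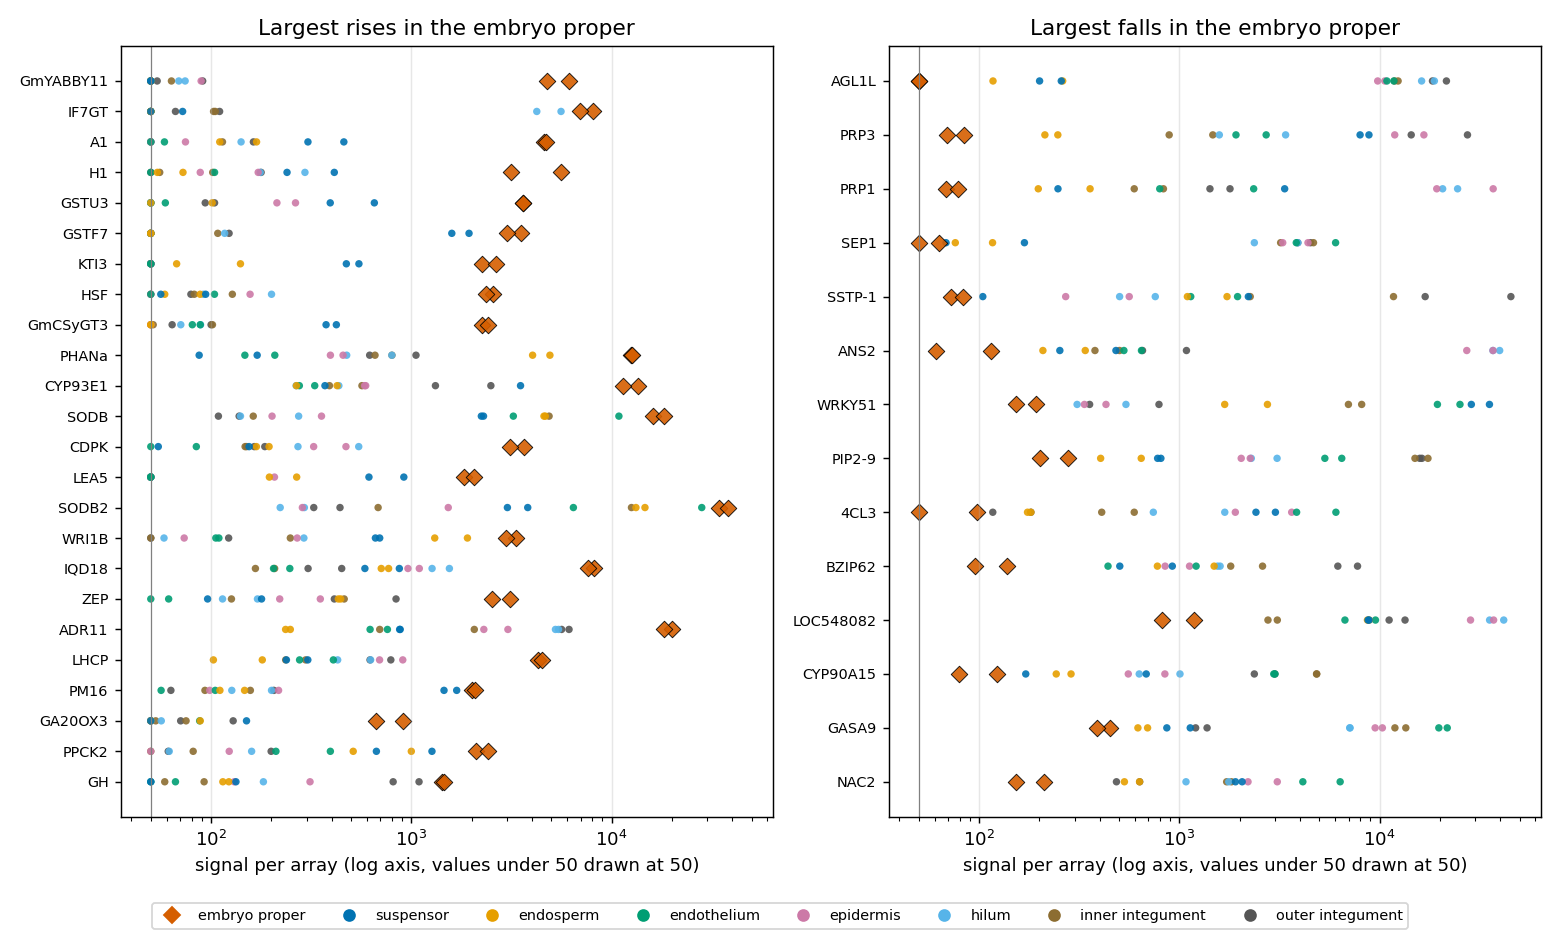
Signal on each array (x axis, log scale) of the 24 named genes with the largest rises and the 14 with the largest falls without overlap (rows), diamonds for the 2 embryo proper arrays and dots for the 14 others, coloured by compartment. By the rule that chose these genes, every diamond lies right of all dots in the left panel and left of all dots in the right panel, at gaps that range from wide (GmYABBY11) to narrow (PM16, GH).

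The floor and the background set the size of some folds. Signals under 50 were counted as 50, and the 95th percentile of probe sets for other organisms averaged 166 over the 14 other arrays and 138 over the embryo proper arrays. For 12 of the 24 rises and 9 of the 14 falls the lower side averaged under that level, so the size of those folds depends on the floor, as given beside some of them. The probe sets shown for many genes below carry a suffix that marks probes shared by more than 1 transcript, so their signal may hold that of related genes. Among those that were higher these were KTI3, KTI-3, KTI-2, IF7MaT, IFS1, CHI1B1, SODB, ADR11, SIP1-6, PIP2-13, LHCP, CAB3, PETC, SGT2, GASA14, CP3, MIPS, ACCC-2, BCH5, HO1, GmCRY1c1, RLK2 and CCS52. Among those that were lower they were PRP1, PRP2, PRP3, STP1, F3H, LOX1.4, LOX7, LOX9, GSTU30, NMH7, DGAT3-2 and GER2, and among those that did not pass GY1, GY2, CG-BETA-1, IFS2 and PTOX. Where other probe sets of a gene had the opposite sign, this is given beside it, and it also holds for 1 of 2 of GAI1, 1 of 3 of GSA1, PSAD, RLK2 and APX2, and 2 of 4 of LOX7.

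A transcription factor of organ formation had the largest rise of any named gene. GmYABBY11, of the YABBY family that marks lateral organs, read 4741 and 6123 in the embryo proper and 14.4 to 90.8, with a median of 33.4, elsewhere. It was thus bright on both embryo proper arrays and near background on all 14 others, including those of the suspensor (14.4 and 17.1). The fold was 92.1 (log2 fold 6.52 ± 0.35 SE, limma adjusted p = 8.47e-10), with 75.3-fold against the nearest compartment, the hilum. With the floor at 100 the fold was 53.9 and without a floor 145.

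H1, the KNOX homeobox gene also named Sbh1, read 5565 and 3148 in the embryo proper and 27.3 to 412, with a median of 103, elsewhere. Both embryo proper arrays stood clear of the highest other array, one of the suspensor. Its fold was 36.1 (log2 fold 5.17 ± 0.49 SE, limma adjusted p = 6.12e-07). PHANa, a PHANTASTICA-type MYB factor that in other plants represses KNOX genes in leaf primordia, read 12549.8 and 12679 against 87.2 to 4922, with a median of 548. The endosperm arrays (4922 and 4033) were the highest of the others, and the next was an outer integument array at 1055. PHANa was 23.1-fold higher than the mean (log2 fold 4.53 ± 0.29 SE, limma adjusted p = 8.07e-09) and 2.83-fold higher than the endosperm.

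The rest of the organ list held 4 genes. GmYABBY12 (477 and 568 in the embryo proper, at most 216 elsewhere) rose 4.69-fold, and PHANb, a second PHANTASTICA-type gene, rose 3.16-fold. GmYABBY9 did not pass (log2 fold -0.36 ± 0.32 SE). LBD23, of the LATERAL ORGAN BOUNDARIES domain family, went the other way: it read 6.9 and 5.7 in the embryo proper and 29.1 to 2728, with a median of 547, elsewhere, and was at least 8.12-fold lower. Over the whole list, 5 of 7 measured members rose and 1 fell, and the median log2 fold was 2.23.

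**Figure D3:**
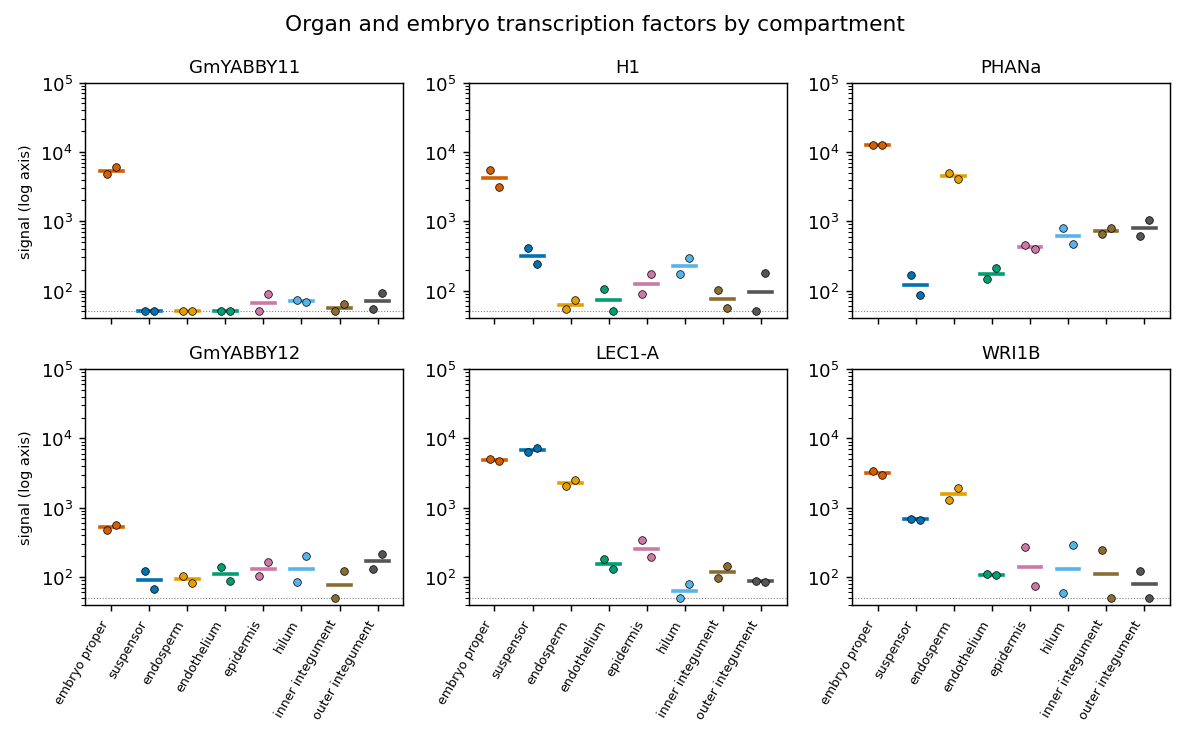
Signal of 6 transcription factor genes (log y axis) on both arrays (dots) of each of the 8 compartments (x axis), with the geometric mean as a bar and the floor of 50 as a dotted line. GmYABBY11 and H1 stand high in the embryo proper alone, PHANa and WRI1B have the endosperm next, and LEC1-A is as high in the suspensor as in the embryo proper.

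LEC1-A, a NF-Y subunit gene of the LEC1 type, was shared with the suspensor unlike the organ factors above. It read 5038 and 4675 in the embryo proper and 6399 and 7176 in the suspensor, while the endosperm averaged 2296 and the seed coat parts 62.6 to 256. The suspensor arrays lay above the embryo proper arrays, and LEC1-A did not pass in that single comparison. Against the mean of 7 it was 14.8-fold higher (log2 fold 3.89 ± 0.31 SE, limma adjusted p = 7.59e-08), and against the mean of the 6 without the suspensor 24.6-fold. WRI1B, a WRINKLED1-type AP2 factor that in Arabidopsis turns on genes of glycolysis and fatty acid synthesis, read 3328 and 2970.2 against 12.9 to 1906, with a median of 186. Both embryo proper arrays were above all others, the endosperm (1309 and 1906) came next, and the seed coat parts averaged 78.2 to 141. WRI1B was 14.9-fold higher (log2 fold 3.90 ± 0.60 SE, limma adjusted p = 0.000111). Of 5 seed development factors measured these 2 rose and 1, Dof6, fell (2.88-fold lower). Dof6 did not pass when either embryo proper array was left out.

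Storage protein genes were mostly near background in every compartment at this stage. Of 8 storage protein genes measured, 1 rose and none fell. That gene was A1, listed as Albumin-1, a small sulfur-rich seed albumin: 4581 and 4679 in the embryo proper and 4.4 to 460.3, with a median of 92.5, elsewhere. Both embryo proper arrays were far above every other array, the suspensor (305 and 460.3) was next, and A1 was 46.5-fold higher (log2 fold 5.54 ± 0.49 SE, limma adjusted p = 2.36e-07). The glycinin genes GY1, GY2, GY3, GY5 and GY7 and the beta-conglycinin gene CG-BETA-1, the main storage globulins, read from 21.6 (CG-BETA-1) to 206 (GY2) in the embryo proper and did not pass. On the other 14 arrays these 6 genes read at most 289.

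Protease inhibitors, which accumulate in seeds beside the storage proteins, rose in 4 of 6 genes with none lower (median log2 fold 1.82). KTI3, the Kunitz trypsin inhibitor of soybean seed, read 2263 and 2644 against 5.9 to 547, with a median of 22.9, and the suspensor (474 and 547) was next. It rose 31.9-fold (limma adjusted p = 1.8e-08). KTI-3 read 4761 and 5404, just above the outer integument at 3842 and 4484, and rose 10.4-fold. KTI-2 (4.98-fold) and the Bowman-Birk inhibitor BBI (2.5-fold) were higher by less. KTI-2 did not pass without embryo proper array 2, and BBI did not pass without either array.

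Of 32 maturation and late embryogenesis abundant genes measured, 11 rose, 4 fell and 17 did not pass (median log2 fold 0.10). The falls numbered 1 with the floor at 25, 1 without a floor and 1 against the mean of 6 compartments without the suspensor. For each of the 11 the suspensor was the compartment closest to or above the embryo proper. LEA5 read 1837 and 2062 against 8 to 917, with a median of 30.9, with the suspensor (614 and 917) next and every endothelium and inner integument array under the floor. It was 19.2-fold higher (log2 fold 4.26 ± 0.43 SE, limma adjusted p = 1.18e-06). PM16 (2003 and 2081) stood only 1.3-fold above the suspensor and rose 11.7-fold. PM29 and PM34 rose 18.8-fold and 14.8-fold while the suspensor arrays read 3976 and 5219 for PM29 and 6123 and 10386 for PM34. CP3, a cysteine protease gene that is also on this list, rose 10.2-fold with the suspensor at up to 23077. MP2 read 250.5 and 728 in the embryo proper and 50320.5 and 40655 in the suspensor, and its rise of 2.87-fold grew to 4.89-fold when embryo proper array 1 was left out and shrank to 1.68-fold, without passing, when array 2 was. The 4 that fell (PM39, PM22, LEA-2 and PM32) did not pass without either embryo proper array.

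Genes of the chloroplast rose in 9 of 16 photosynthesis and chlorophyll genes and fell in none (median log2 fold 1.13). LHCP, a light-harvesting chlorophyll-binding protein, read 4292 and 4499 against 103 to 906, with a median of 356, with the epidermis (694 and 906) next. Its fold was 11.9 (log2 fold 3.57 ± 0.30 SE, limma adjusted p = 1.43e-07). CAB3, of the same protein family, read 35786 and 38522 and rose 7.44-fold (log2 fold 2.90 ± 0.20 SE, limma adjusted p = 1.44e-08). Here the outer integument (20178 and 20247), epidermis and hilum were bright too, and 1 of 5 probe sets of CAB3 had the opposite sign. RCAALPHA, an activase of the carbon-fixing enzyme Rubisco, rose 5.47-fold, PETC, the Rieske iron-sulfur protein of electron transport, 3.79-fold, and GSA1, which makes the precursor of chlorophyll and heme, 1.86-fold. CHLH, a subunit of the magnesium chelatase of chlorophyll synthesis, read 297 and 477 and was 4.06-fold higher, but it did not pass without either embryo proper array. PSAD, of photosystem I, did not pass (log2 fold -0.26 ± 0.17 SE), and neither did PTOX, HEMB, HEMG, NDHK, FTRC or RCA11.

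The genes SODB and SODB2 code for iron superoxide dismutases, the type that plants keep in plastids. SODB2 read 34339 and 38030.1 in the embryo proper, and the endosperm (14682 and 13232) and endothelium (28208 and 6446) came next. The outer integument and hilum averaged 379 and 254, so the range among the other compartments was wide. SODB rose 19.9-fold (log2 fold 4.32 ± 0.73 SE, limma adjusted p = 0.000259) and SODB2 18.3-fold (log2 fold 4.19 ± 0.71 SE, limma adjusted p = 0.000292). Of 10 superoxide and redox enzymes 3 rose and 3 (APX2, SOD1 and CAT1) fell, by 1.42-fold, 1.73-fold and 1.95-fold. None of these 3 falls passed without embryo proper array 1, 1 passed without array 2, and those of APX2 and SOD1 were also lost without several single arrays of other compartments.

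Fatty acid synthesis in plastids rose in 7 of 10 genes and fell in none (median log2 fold 1.31), and for 5 of these 7 the endosperm was the nearest compartment. ACCB-2, the biotin carrier subunit of acetyl-CoA carboxylase, which commits carbon to fatty acids, read 11616 and 11304 against 198 to 9685, with a median of 2719. The endosperm averaged 8989 and the inner integument 261, and the rise was 5.56-fold (log2 fold 2.48 ± 0.25 SE, limma adjusted p = 9.76e-07). The carboxylase subunit genes ACCC-2 (3.29-fold), ACCC-3 (2.62-fold) and ACCA-1 (3.33-fold), the condensing enzymes KAS III (3.07-fold) and KASII-A (1.49-fold) and the stearoyl desaturase SAD2 (2.35-fold) were higher as well. ACCA-1 did not pass without either embryo proper array, nor without endosperm array 2 or hilum array 2. FAT1, a thioesterase that ends chain growth, did not pass (log2 fold -0.32 ± 0.14 SE), except as lower without epidermis array 1.

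Genes on the list of oil desaturation and assembly moved in both directions. Of 11 measured 2 rose and 2 fell, and WRI1B, a factor and not an enzyme, was one of the rises. FAD2-1A, the seed type of oleate desaturase, was still dim: 449 and 473 in the embryo proper and 7.6 to 187, with a median of 35.6, elsewhere. Both embryo proper arrays were nevertheless above all others and it rose 7.59-fold (log2 fold 2.93 ± 0.39 SE, limma adjusted p = 2.17e-05; 4.35-fold with the floor at 100). The acyltransferase DGAT3-2 (2.19-fold) and the plastid desaturase FAD8.2 (1.83-fold) were lower, FAD8.2 only with both embryo proper arrays.

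Of 9 genes on the isoprenoid and carotenoid list 4 rose and none fell, and fewer rose without embryo proper array 2. HO1, a heme oxygenase and so not of these pathways, was among the 4 (1.91-fold, with 1 of 2 probe sets of opposite sign). ZEP, a zeaxanthin epoxidase on the way to abscisic acid, read 2515 and 3124 against 12.6 to 839, with a median of 199. The outer integument (588 on average) and endosperm (438) came next, and ZEP rose 13.4-fold (log2 fold 3.74 ± 0.44 SE, limma adjusted p = 6.25e-06). DXR1, an enzyme of the plastid isoprenoid pathway, rose 2.59-fold and the carotene hydroxylase BCH5 2.1-fold, which did not pass without embryo proper array 2. Of 7 tocopherol genes 4 rose and 2 fell, the phytol kinase gene VTE5 (LOC100788252, 4.4-fold) having the largest rise. The rises numbered 1 without the variance trend, 2 without the filter and 2 against the mean of 6 compartments without the suspensor. When every probe set of a gene had to pass, 2 rose and 0 fell. Fewer also rose without either embryo proper array, hilum array 2 or outer integument array 1, and fewer fell without embryo proper array 2.

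Saponins are triterpene glycosides that soybean embryos store, and all 6 measured genes of their synthesis rose, at a median log2 fold of 3.64. GmCSyGT3, which in soybean adds the first sugar acid to the triterpene, read 2262 and 2416 against 28.6 to 422, with a median of 75.6. The suspensor (422 and 375) was next and the remaining captures were near background, for a fold of 26.8 (log2 fold 4.74 ± 0.36 SE, limma adjusted p = 4.52e-08). CYP93E1, the cytochrome P450 that oxidizes beta-amyrin, read 13501 and 11406 and rose 21.7-fold (log2 fold 4.44 ± 0.51 SE, limma adjusted p = 4.76e-06). Its 2 suspensor arrays were far apart, 370.4 and 3511, and 1 of its 3 probe sets had the opposite sign.

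The outer integument was the closest compartment for CYP93E1, 6.84-fold below the embryo proper, and for the other 4 saponin genes. For these 4 its arrays overlapped or exceeded those of the embryo proper. CYP72A67 read 10193 and 10357 in the embryo proper and 13496 and 12077 in the outer integument, and no other compartment averaged above 1172. The sugar transferases SGT2 (5261 and 7732 against 6685 and 5307) and SGT3 (3932 and 4566 against 9299 and 8710.3) had the same pair of compartments at the top. GT4, on the same list, read 774 and 727 in the embryo proper and up to 1175 in the others, and 2 of its 3 probe sets had the opposite sign. Their folds over the mean of 7 were 13.9 for CYP72A67, 11.2 for SGT2, 6.03 for SGT3 and 6.67 for GT4. When every probe set of a gene had to pass, 3 of the 6 genes remained counted.

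**Figure D4:**
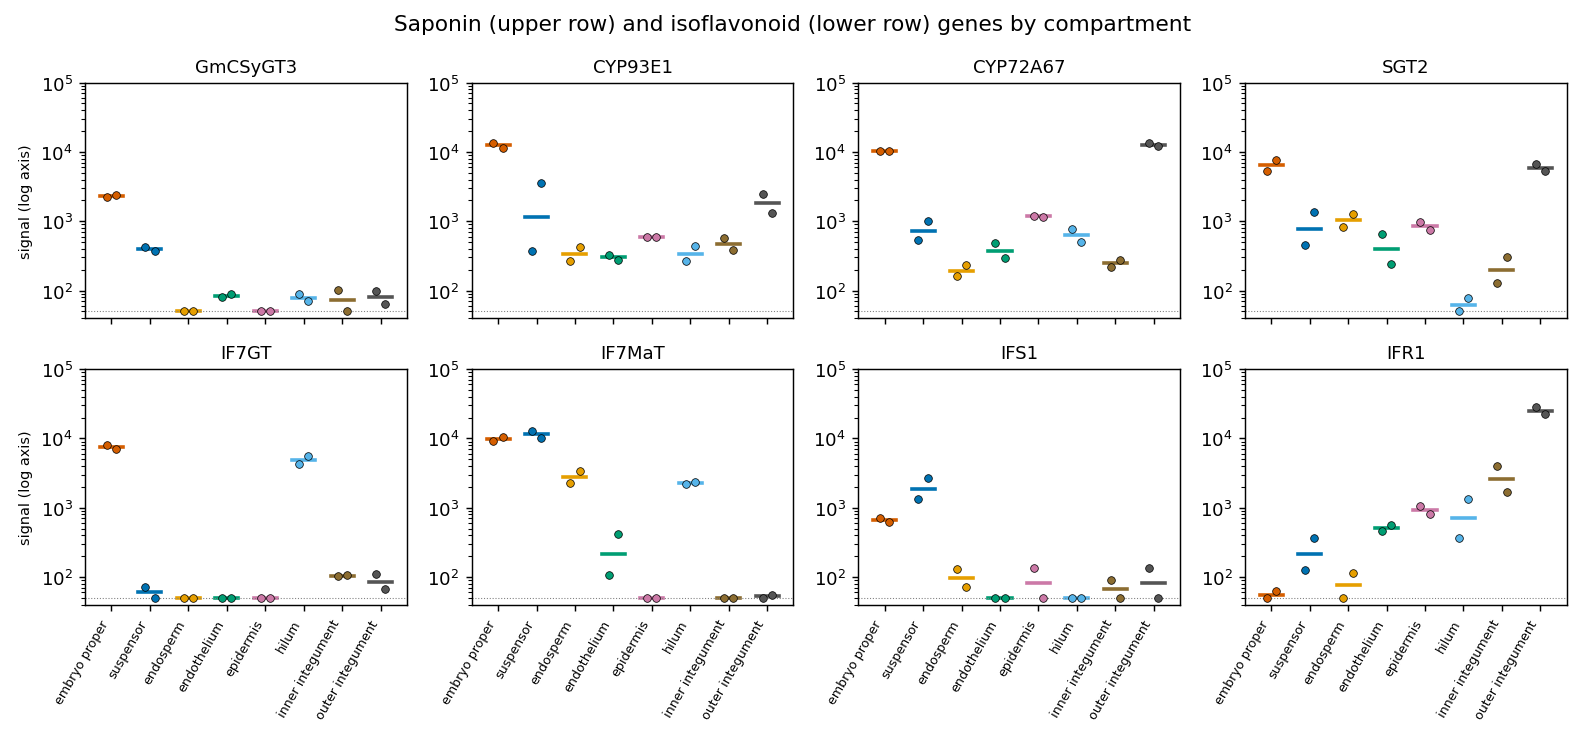
Signal of 4 saponin genes (upper row) and 4 isoflavonoid genes (lower row) on both arrays of each compartment (dots, log y axis), with the geometric mean as a bar and the floor of 50 dotted. CYP72A67 and SGT2 are high in the embryo proper and the outer integument, IF7GT in the embryo proper and the hilum, IF7MaT and IFS1 in the embryo proper and the suspensor, and IFR1 in the outer integument.

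Isoflavonoids, the defence compounds and nodulation signals of legumes, gave 4 rises and 1 fall among 17 measured genes, and the compartment that accompanied the embryo proper differed from gene to gene. IF7GT, which glucosylates isoflavones, read 8062 and 6961 in the embryo proper and 4232 and 5593 in the hilum. Every array of the remaining 6 compartments was near background, and IF7GT was 63.3-fold above the mean of 7 (log2 fold 5.98 ± 0.34 SE, limma adjusted p = 1.96e-09) but only 1.54-fold above the hilum, where it did not pass. IF7MaT, which adds malonate to the glucoside, read 9014 and 10602, and the suspensor (12949 and 10048) was at the same level. IF7MaT rose 23.8-fold (log2 fold 4.57 ± 0.36 SE, limma adjusted p = 5.88e-08), or 41.3-fold over the 6 without the suspensor, with 1 of 3 probe sets of opposite sign. IFS1, an isoflavone synthase, read 709 and 616 in the embryo proper and 1326 and 2644 in the suspensor, and rose 5.96-fold over the mean of 7. The other isoflavone synthase gene, IFS2, read 89.7 and 67.2 in the embryo proper and up to 3528.5 elsewhere. IFS2 did not pass (log2 fold -0.46 ± 0.44 SE). IFR1, an isoflavone reductase, read 7.2 and 62.2 and was 15.4-fold lower (log2 fold -3.95 ± 0.46 SE, limma adjusted p = 5.6e-06), with 27992 and 22222 in the outer integument.

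Genes of the anthocyanin branch were mostly low. Of 6 anthocyanin and proanthocyanidin genes 4 fell and 1 rose (median log2 fold -2.27). ANS2, the anthocyanidin synthase, read 61.1 and 115 in the embryo proper and 208 to 39798, with a median of 588, elsewhere. Its brightest captures were the epidermis (27263 and 36876) and hilum (36823 and 39798), both embryo proper arrays lay below all 14, and it was 18.8-fold lower (log2 fold -4.23 ± 0.30 SE, limma adjusted p = 2.18e-08). DFR1, a dihydroflavonol reductase, and ANR1, the anthocyanidin reductase of proanthocyanidin synthesis, were 9.02-fold and 8.08-fold lower. UGT78K1, a flavonoid glucosyltransferase, rose 12.5-fold, with 2459.8 and 2432 in the embryo proper and 10058 and 12806 in the suspensor. Of 19 early flavonoid genes 2 rose and 8 fell (5 without either embryo proper array), the falls led by the ligase 4CL3 (12.9-fold), the hydroxylase F3H (7.47-fold) and the chalcone isomerase CHI2-A (7.39-fold). CHI1B1, another chalcone isomerase gene, rose 8.88-fold, with the suspensor at 3050.2 and 4214 and 1 of its 4 probe sets of opposite sign.

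Among gibberellin genes 8 of 21 rose and 4 fell. GA20OX3, which makes the precursors of active gibberellin, read 912 and 669 against 8.9 to 150.3, with a median of 54.6. No other array came near the embryo proper, and its fold was 11.7 (log2 fold 3.54 ± 0.42 SE, limma adjusted p = 6.84e-06; 7.45 with the floor at 100). GA2OX6, which inactivates gibberellin, was under the floor on both embryo proper arrays and at least 8.26-fold lower than the mean, with 11752 and 9567 in the endothelium and 6367 and 8329 in the inner integument. GAI1, of the DELLA family that restrains gibberellin response, rose 4.23-fold. Without embryo proper array 1 the rises of the list numbered 5.

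The GASA genes, which code for small peptides named after their response to gibberellin, were divided. GASA14 read 23233 and 16316, overlapping the hilum (21554 and 23871), and rose 10.8-fold (log2 fold 3.44 ± 0.22 SE, limma adjusted p = 8.25e-09). GASA13 (452 and 677) and GASA12 (429 and 259) were dimmer but highest of all compartments, at 8.35-fold and 5-fold, and GASA12 did not pass without embryo proper array 1. GASA9 read 452 and 390.3 against 621 to 21780.4, with a median of 7110.4, below all 14 arrays, and was 9.46-fold lower (log2 fold -3.24 ± 0.16 SE, limma adjusted p = 4.61e-10). GASA6 and GASA22 were 9.05-fold and 6.14-fold lower. GASA22 was 3.54-fold lower without embryo proper array 1, where it did not pass, and 10.7-fold without array 2.

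Other hormone genes gave single large values. ADR11, named as auxin down-regulated, read 20112 and 18241 against 236 to 6132, with a median of 1471, and rose 13.1-fold (log2 fold 3.71 ± 0.27 SE, limma adjusted p = 2.82e-08). The outer integument (5876) and hilum (5339) followed it. AUX22, of the Aux/IAA repressors of auxin response, was 3.72-fold lower, and PIN2A, an auxin efflux carrier, was 2.7-fold higher but not without either embryo proper array. CYP90A15, of the P450 family that acts in brassinosteroid synthesis, read 123 and 79, below all 14 arrays (171 to 4857), and was 11.1-fold lower (log2 fold -3.48 ± 0.37 SE, limma adjusted p = 1.92e-06). CKX3, a cytokinin oxidase, was 2.67-fold lower, a call lost without either embryo proper array.

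Of 6 receptor-like kinases measured 5 rose and none fell (3 without embryo proper array 2). LRK1 read 3309.9 and 2946 and rose 7.29-fold, with 4006 and 5045 in the hilum. RLK1, RLK2, RLK3 and SERK1 rose 2.73-fold, 2.58-fold, 1.82-fold and 1.52-fold. RLK2, RLK3 and SERK1 each passed as lower against 1 single compartment. For RLK2 and RLK3 the outer integument was highest (31823 and 29991 for RLK2), and for SERK1 the endosperm, 2.01-fold above the embryo proper. CLV1A, of the CLAVATA1 type that limits stem cells in meristems, read 79.2 and 189 and did not pass, and its brightest capture was the endosperm (767 and 372).

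Of 9 calcium signalling genes 2 rose and 2 fell (1 each without embryo proper array 2). CDPK, a calcium-dependent protein kinase, read 3655 and 3117 against 38.4 to 546, with a median of 166, and both embryo proper arrays stood far above the highest other array. It rose 19.8-fold (log2 fold 4.30 ± 0.41 SE, limma adjusted p = 5.67e-07). Outside that list IQD18, a calmodulin-binding IQ domain protein, read 8132 and 7604 against 166 to 1549, with a median of 647, and rose 14.8-fold (log2 fold 3.89 ± 0.25 SE, limma adjusted p = 6.83e-09). CDPK-GAMMA and the calmodulin SCAM-4 were 5.53-fold and 4.15-fold lower. CDPK-GAMMA was 3.2-fold lower when embryo proper array 1 was left out and 9.56-fold lower when array 2 was, and SCAM-4 did not pass without either.

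Glutathione S-transferases, which join glutathione to toxic or oxidized molecules, gave 10 rises and 9 falls among 35 genes. GSTU3 read 3591 and 3600.5 against 5.5 to 654, with a median of 76.3, with the suspensor (394 and 654) next, and rose 35.3-fold (log2 fold 5.14 ± 0.37 SE, limma adjusted p = 2.36e-08). GSTF7 read 3544 and 3005 and rose 32.8-fold (log2 fold 5.03 ± 0.43 SE, limma adjusted p = 1.63e-07). In GSTF7 the suspensor (1593 and 1942) came close, all others were near background, and the fold was 52.9 over the 6 without the suspensor. GSTU30 (5.46-fold) and GSTU26 (4.74-fold) led the falls. Without embryo proper array 1 or 2 the falls numbered 5 and 4.

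Among 23 aquaporins, the channels for water, 8 rose (5 without embryo proper array 2) and 6 fell. PIP2-13 read 11668 and 12092 and was higher than each single compartment (3.54-fold over the mean, log2 fold 1.82 ± 0.18 SE, limma adjusted p = 9.22e-07). PIP2-9 read 279 and 201 against 405 to 17449.8, with a median of 2683, below all 14 arrays, with its brightest captures in the inner (15026 and 17449.8) and outer integument (15874 and 16287). It was 13.6-fold lower (log2 fold -3.76 ± 0.20 SE, limma adjusted p = 9.35e-10). SIP1-6 rose 13-fold and was brightest in the suspensor (1371 and 1938).

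The sugar transport gene with the largest change was SWEET24, of the SWEET family of sugar exporters. It read 23.6 and 106 in the embryo proper and 79061 and 57743 in the outer integument, and was 45.9-fold lower than the mean (log2 fold -5.52 ± 0.34 SE, limma adjusted p = 3.67e-09). The suspensor arrays (15.9 and 13.6) overlapped those of the embryo proper for SWEET24. STP1, listed as a sugar transport protein, was 12.6-fold lower (log2 fold -3.66 ± 0.22 SE, limma adjusted p = 2.84e-09). Of 16 genes on the sugar list, which also holds a sucrose synthase, an invertase and invertase inhibitors, 2 rose and 4 fell. The invertase inhibitor GmC/VIF2 (2.31-fold lower) was among the falls, and fewer genes rose or fell without either embryo proper array. GBSSIa, the granule-bound starch synthase that makes amylose, read 15088 and 17242, close to the suspensor (16603 and 17841), and rose 10.3-fold. The beta-amylase genes BMY1 (LOC547684, 3.12-fold) and BMY2 (2.9-fold) were lower, BMY2 only with both embryo proper arrays. BMY1 had 1 of 3 probe sets of opposite sign, and when every probe set of a gene had to pass, neither the fall of a beta-amylase gene nor the rise of GBSSIa remained counted.

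PPCK2, the kinase that activates phosphoenolpyruvate carboxylase, read 2106 and 2408 against 45.6 to 1268, with a median of 179, and rose 11.6-fold (log2 fold 3.54 ± 0.50 SE, limma adjusted p = 4.98e-05). Genes of the carboxylase itself were lower in 3 cases: PPC1 was 3.09-fold, PEPC16 2.98-fold and PEPC7 2.23-fold lower. MIPS, the inositol phosphate synthase at the start of phytate synthesis, was higher than each single compartment (12806 and 11758 against 711 to 6999) and rose 5.58-fold (log2 fold 2.48 ± 0.26 SE, limma adjusted p = 1.66e-06).

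Nitrogen genes gave 4 rises and 8 falls among 25, with 2 rises left without either embryo proper array and 5 falls left without array 2. The cytosolic glutamine synthetase LOC548082 (GS1beta1) read 818 and 1184 against 2772 to 41701, with a median of 9210.5, below all 14 arrays, and was 11.8-fold lower (log2 fold -3.56 ± 0.17 SE, limma adjusted p = 2.14e-10). GS1-GAMMA, another glutamine synthetase, was 14.9-fold lower, with the inner integument at 20275 and 21147. ASP1, an asparaginase that frees ammonium from the amide that feeds soybean seeds, read 19567 and 24264 and was 6.14-fold higher than the mean, and the outer integument read 31272 and 40104.

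MADS-box factors, known as makers of floral organs and of seed coat, fell in 6 of 7 genes and rose in none (median log2 fold -1.84). AGL1L, an AGAMOUS-like gene, read 4 and 4.8 in the embryo proper and 117 to 21574, with a median of 11338, elsewhere. The endosperm averaged 175 and the suspensor 227, while the lowest seed coat array read 9790.2, so the 3 filial compartments stood apart from the 5 maternal ones. The fall was at least 82-fold (log2 fold -6.36 ± 0.23 SE, limma adjusted p = 6.81e-12), and at least 164-fold with the floor at 25. MADS28 (at least 37.6-fold) and the SEPALLATA-type SEP1 (24.4-fold) also had all 5 seed coat parts above the endosperm and suspensor, and AGL3L, SOYAP1 and NMH7 fell 2.3-fold, 2.62-fold and 3.58-fold. NMH7 was bright only in the hilum (12608 and 13908).

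Proline-rich and BURP proteins of the cell wall fell in 4 of 5 genes (median log2 fold -4.89). SCB1, the seed coat BURP protein, read 162 and 679.9 in the embryo proper and up to 140588 elsewhere. The 2 embryo proper arrays were far apart, and its fold of 61.4 lower was 29.9 without array 1 and 126 without array 2. PRP3 read 69 and 84 against 213 to 27486, with a median of 3055, below all 14 arrays, and was 41.7-fold lower (log2 fold -5.38 ± 0.28 SE, limma adjusted p = 8.06e-10). PRP1 was 29.7-fold lower and was brightest in the epidermis and hilum.

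The families of stress and development factors are read against the 22.2% of all named genes that fell and the 21.7% that rose. Of 18 NAC factors 10 fell and none rose (median log2 fold -1.62). NAC2 read 210.4 and 154 against 486 to 6358, with a median of 1794, and was lower than each single compartment (8.58-fold below the mean). Of 45 WRKY factors 12 fell, near that share, and 4 rose, a smaller share than of all named genes. Fewer of them fell when either embryo proper array was left out. WRKY51 (193 and 152) was 15.5-fold lower (log2 fold -3.96 ± 0.28 SE, limma adjusted p = 2.05e-08), and the suspensor (35385 and 28732) and endothelium (19453 and 25216) were its brightest captures. Of 56 MYB factors 11 fell, near the share of all named genes, and 3 rose, a smaller share. MYB73 led the falls (10.7-fold lower), and fewer MYB factors rose or fell without either embryo proper array. Of 15 ERF and DREB factors 6 fell and none rose, and 2 fell without either embryo proper array. DREB2A2, which acts in drought and heat response, was below all 14 arrays at 108 and 96.5 and 5.48-fold lower.

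bZIP factors gave 8 rises and 8 falls among 58 genes, both smaller shares than of all named genes. Fewer rose without either embryo proper array, and fewer fell without array 2. BZIP62 read 95.8 and 137 against 441 to 7764, with a median of 1353, and was 12.5-fold lower (log2 fold -3.64 ± 0.34 SE, limma adjusted p = 4.8e-07). Of 17 heat shock proteins and factors 7 fell (4 without embryo proper array 1) and 1 rose. The one that rose, named only HSF, read 2547 and 2361 against 9.1 to 200.4, with a median of 85.3, and was 29.2-fold higher (log2 fold 4.87 ± 0.47 SE, limma adjusted p = 6.86e-07), 18.1-fold over its nearest compartment. HSF-08 went the other way: at 88.5 and 93.3 it was below all 14 arrays (381 to 1482) and 7.55-fold lower.

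Lipoxygenases, which oxidize polyunsaturated fatty acids toward jasmonate and other products, gave 4 falls and 2 rises with the jasmonate genes among 15. LOX9 read 302 and 537 against 98.4 to 96788, with a median of 8803, with suspensor arrays (1515 and 98.4) on either side of the embryo proper, and was 18.3-fold lower (log2 fold -4.20 ± 0.56 SE, limma adjusted p = 2.51e-05). LOX1.4 (4.45-fold), LOX7 (3.54-fold) and the allene oxide cyclase AOC4 (3.38-fold) were lower as well. The 2 rises, LOX10 and AOC6, did not pass without either embryo proper array.

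Of 11 light signalling genes 3 rose, all of them cryptochromes, the blue light receptors of plants. Another cryptochrome gene, GmCRY2c, did not pass (log2 fold -0.09 ± 0.42 SE). Against the mean of 6 compartments without the suspensor, 1 gene of the list rose. CRY2B read 2964 and 2780.5 against 67.1 to 10969.9, with a median of 713, inside the range of the others, and rose 3.78-fold. GmCRY1c1 and GmCRY1b1 rose 2.66-fold and 1.99-fold, with the outer integument above the embryo proper, and 1 of the 3 rises was left without either embryo proper array. Of 8 genes for 14-3-3 proteins, which bind phosphorylated partners, 4 rose (2 without embryo proper array 2) and 2 fell (1 without array 1). SGF14n (6469 and 6893) lay above all 14 arrays and rose 2.3-fold, while GF14C (20108 and 22377) lay below all 14 and was 1.67-fold lower.

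Other small groups held single genes of large fold. VPE, a vacuolar processing enzyme of the kind that cleaves storage proteins, read 2532 and 2585 against 87.7 to 5906, with a median of 179, with the suspensor highest, and rose 7.58-fold. The peroxidase PRX3 rose 7.19-fold, also with the suspensor closest, and the peroxidase PRX2 was 6.03-fold lower, at 2983 and 3019 in the embryo proper. The expansin EXP2, of a family that loosens cell walls, was 4.15-fold lower. Of 15 nodulin genes 3 fell and none rose, with N-26 the lowest (4.79-fold), and none of these falls passed without embryo proper array 2. Of 6 genes for sieve element occlusion proteins, which plug phloem, 2 fell, neither of them without either embryo proper array. GH, a gene with no role given here, read 1420.3 and 1449.8, just above the outer integument (811 and 1093), and rose 10.8-fold (log2 fold 3.43 ± 0.49 SE, limma adjusted p = 4.8e-05).

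**Figure D5:**
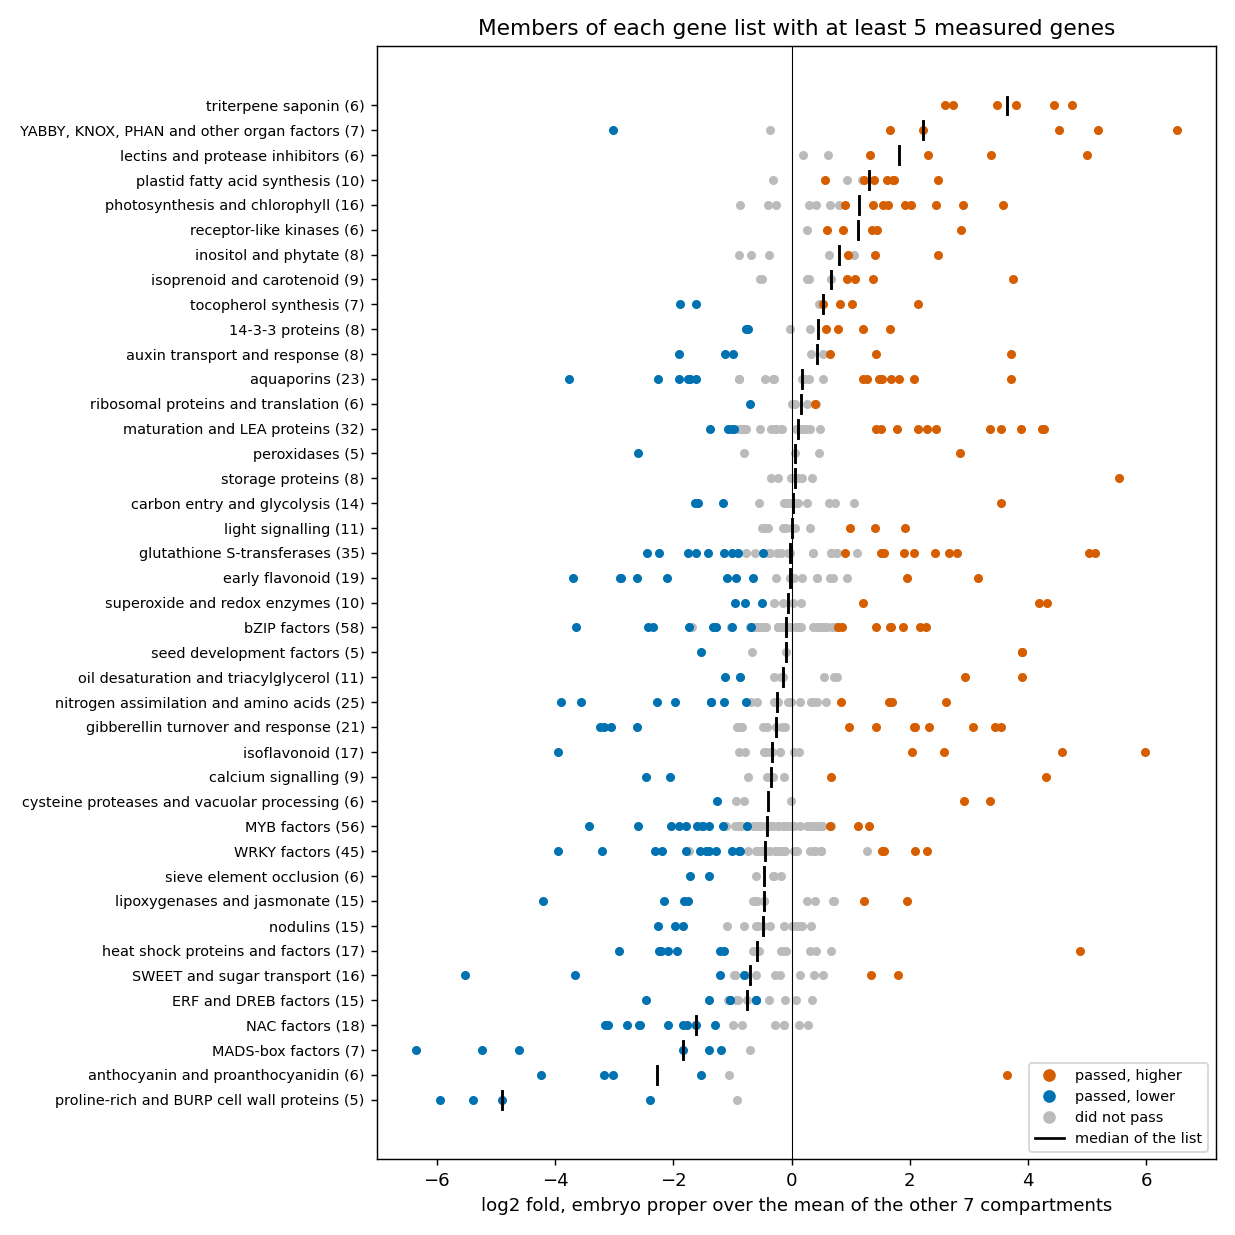
Log2 fold of embryo proper over the mean of the other 7 compartments (x axis) for each measured member (dots) of the 41 gene lists with at least 5 measured genes (rows, number in brackets), coloured by the limma call, with the list median as a black bar. Rows run from saponin genes at the top (median 3.64) to proline-rich and BURP proteins at the bottom (median -4.89).

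Of the 46 gene lists, 11 held at least 1 rise and no fall, and 8 held at least 1 fall and no rise. Among genes of basic cell functions, the proliferating cell nuclear antigen PCNA, a DNA replication clamp, read 17262 and 17239 and did not pass (log2 fold 0.38 ± 0.15 SE, limma adjusted p = 0.0758), though it did without epidermis array 2. CCS52, an activator of the complex that degrades mitotic cyclins, rose 2.13-fold and the nuclease FEN-1 1.49-fold, the second not without embryo proper array 1. Of 6 ribosomal and translation genes 1 rose and 1 fell, both by under 2-fold, and neither passed without either embryo proper array. After quantile normalization 4 of these rose and none fell. The actin gene ACTIN read 3746 and 3847, above all 14 other arrays (665 to 2861), and rose 2.14-fold (limma adjusted p = 0.00201), but it did not pass without embryo proper array 2. The tubulin genes TUBB2 and TUBB3 were 1.37-fold and 1.4-fold higher, and neither passed without either embryo proper array.

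Against single compartments, named genes gave the steepest contrasts, and all 7 comparisons share the 2 embryo proper arrays. SWEET24 was 926-fold lower than in the outer integument (79061 and 57743 there; limma adjusted p = 1.04e-10), and 45.9-fold lower than the mean. ANS2 was 456-fold lower than in the hilum and 378-fold lower than in the epidermis. IFR1 was 447-fold lower than in the outer integument and GER2, a germin-like gene, at least 271-fold lower than in the endothelium (12753 and 14393). The maturation gene PM32 was 398-fold lower than in the suspensor (31384 and 30582).

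In the other direction, P89 read 28636 and 33867 in the embryo proper and was 433-fold higher than in the endothelium (11.4 and 103; limma adjusted p = 3.94e-10) and 340.2-fold higher than in the outer integument. The suspensor arrays were higher than the embryo proper for P89 (83392 and 53902). SC-04 was 296-fold higher than in the hilum (29.3 and 107). GASA14, which overlapped the hilum, was 266-fold higher than in the endosperm (107 and 15.4). IF7GT was 125-fold higher than in the suspensor and at least 149.8-fold higher than in the endosperm. GmYABBY11 was at least 108-fold higher than in the suspensor (14.4 and 17.1), where both arrays were under the floor.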

How the data were processed

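Transcript levels were measured in 8 captured seed compartments, 2 arrays each, on 61170 probe sets, of which 37593 are for soybean. The deposited values are signal intensities on a linear scale that the authors made with GCOS 1.3, per the submitters' processing notes; its settings are not given in the sources used here. The 2% trimmed mean of each array was 500 to 500.1, so no further scaling was applied.

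Signals were floored at 50 and taken to log2. The 31760 probe sets that reached 100 on 2 or more of the 16 captured arrays were fitted with 1 mean per compartment in limma 3.58.1 under R 4.3.3, with a variance trend. Embryo proper was tested against the mean of the 7 compartment means and against each compartment, with Benjamini-Hochberg adjustment over all tested probe sets and a threshold of 0.05. The number of arrays limits the precision. The fit was tested on simulated data with known changes.

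A gene was named where the platform's probe table gives 1 symbol (8677 soybean probe sets, against 370 with several and 28546 with none or not listed) and a name other than a locus number exists there or in the RefSeq table. It was read from its probe set of highest mean log2 signal. Named were the 24 largest rises and the 14 largest falls without overlap, up to 4 members of each list in each direction, the 10 probe sets with the largest smallest fold over all compartments, 2 rises and 2 falls per single compartment, the markers, and 8 unnamed probe sets; other list members were named to complete a list. All members and the 46 gene lists were chosen with earlier results of these data known, 6 lists of them after the annotation had been seen. No sequence was used.

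Alternatives were the floor, the filter, the variance trend, quantile normalization, whole seed in the fit, 3 arrays of high background left out, a replicate block, each array left out in turn, and 2 added after the data were seen: the mean of 6 compartments without the suspensor, and all probe sets of a gene.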

Additional observations from a re-analysis of the deposited data

How the results depend on the processing

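Over the alternatives run, the 246 named results kept their direction and their side of the threshold 6325 times, lost the threshold 293 times, gained it 10 times and reversed 0 times. The count of probe sets higher than in every compartment was 282 without a floor. Another fit left out 3 arrays of high background (epidermis 2, inner integument 1 and outer integument 1). It kept hilum array 2, whose 95th percentile of probe sets for other organisms (215.6) was above those of the 3 (213.2, 207.2 and 197.3). In that fit 1467 probe sets were higher and 1482 lower than in the epidermis, and 2392 were lower than in the outer integument. With each array left out in turn, the probe sets higher than the mean ranged from 1901 to 3909 and the lower from 1715 to 3533. Those higher than in every compartment ranged from 273 to 466 and those lower than in every one from 114 to 227. For single compartments the ranges were 2434 to 3945 higher and 2392 to 3645 lower (suspensor), 2515 to 3814 and 1823 to 3338 (endosperm), and 2211 to 3563 and 2232 to 3356 (endothelium). They were 1307 to 2428 and 1430 to 2528 (epidermis), 1611 to 3112 and 1725 to 3360 (hilum), 3539 to 5036 and 3211 to 4791 (inner integument), and 2256 to 3793 and 2290 to 3786 (outer integument). The lowest counts came from fits with 1 array of a compared compartment, where the lone array is assumed to vary like the others; endosperm lower was 1911 without endosperm array 1, and outer integument lower was 2399 without outer integument array 1. Deviations of same-numbered arrays correlated at -0.0733 to 0.0831 over 28 compartment pairs, 0 of them over 0.1. Whether same-numbered captures shared seeds or plants was not tested. With the replicate number as a block, 3719 probe sets were higher and 3343 lower than the mean, 464 higher and 222 lower than in every compartment. Quantile normalization moved the median log2 fold from -0.10 to -0.02 and dropping the floor to -0.01, so small folds depend on scaling. Signals near background limit the size of folds: for 104 of the 246 named results the lower side averaged under the other-organism level. Causes of these moves were not tested.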
